A study of Mus musculus with 104 samples.

Results

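Striatal projection neuron markers were followed through the RNA of mouse cerebral cortex. They were a given list of 9 genes (Drd1, Drd2, Adora2a, Ppp1r1b, Pde10a, Rgs9, Rasd2, Scn4b and Gpr6) among the 24060 genes of the deposited RefSeq counts, and all 9 passed the filter on low counts that left 15723 genes. Drd1 is listed there under its older symbol Drd1a. The question was which of them vary together as genes carried over from striatum would, and which vary as genes of the cortex. The tissue was cortex of wild type C57BL/6 mice aged 6 months, from 13 groups of 8 mice, each of 4 females and 4 males. The libraries were 52 from females and 52 from males in all. A group carries the name of a gene and is called a line here: Zswim6, Tbc1d8, Rgs9, Rasgef1a, Ppp1ca, Pcdh20, Morf4l1, Kdm3b, Hrk, Gsg1l, Ece2, Dach1 and Arpp19. By their labels all mice are wild type, those of the Rgs9 line included. The labels tag the line as a batch, so line and batch cannot be told apart. For 92 of the mice they also name a corresponding striatum library, not analysed here. They place 96 libraries on plate 1 and 8 on plate 2; those on plate 2 come from the lines Tbc1d8, Dach1, Rgs9, Morf4l1, Gsg1l and Arpp19.

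Library totals were 3389134 reads in Kdm3b female replicate 22 and between 23932277 and 33489259 reads in the others. In 3 libraries the Y-linked genes and Xist went against the sex label: those labelled Rgs9 female replicate 43, Rasgef1a female replicate 39 and Rasgef1a male replicate 40. They were kept as labelled, and the sex differences are also given without them. The cortex label was checked on marker lists summed in CPM, the counts of a library scaled to 1 common library size. Over libraries the 9 tested upper-layer genes summed to between 1282 and 1642 CPM and the 10 layer 6 and subplate genes to between 107 and 202 CPM. Markers of neighbouring tissue varied too: 5 choroid plexus genes summed to between 1.34 and 309.6 CPM with a median of 3.32 CPM. In bulk tissue, more cells of a type and more RNA per cell cannot be told apart.

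In the striatum, medium spiny projection neurons receive glutamate and dopamine and send a direct and an indirect output pathway to the basal ganglia. The D1 receptor (Drd1) raises cyclic AMP in neurons of the direct pathway, and the D2 receptor (Drd2) lowers it in those of the indirect pathway, where the adenosine receptor encoded by Adora2a and the constitutively active receptor Gpr6 raise it. Cyclic AMP activates protein kinase A, which turns DARPP-32 (Ppp1r1b) into an inhibitor of protein phosphatase 1, and the phosphodiesterase PDE10A (Pde10a) degrades the messenger. Rgs9 encodes a GTPase-accelerating protein that shortens G protein signals, Rasd2 the small G protein Rhes, and Scn4b a beta subunit of voltage-gated sodium channels. Cortical cells express some of these genes as well, such as Drd1 in deep-layer pyramidal neurons and Scn4b in fast-spiking neurons.

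The 9 genes did not vary as a block over the cortices. After line and sex means were removed, Pearson's r of log2 CPM over their 36 pairs had a median of 0.01 and ran from -0.35 to 0.49. No pair was above 0.5, while 22 of 36 pairs of oligodendrocyte markers were. Among the 16 marker lists used below, the oligodendrocyte list had the highest median (0.57). Layer 6 and subplate genes had a median of 0.29. Some lists were as loose as the 9 genes, such as hippocampal genes, with a median of -0.02 and 0 pairs above 0.5. Scn4b varied with markers of parvalbumin interneurons and Drd1 with markers of layer 6. Rasd2 was low where other striatal genes were high. Gpr6 alone was called as rising with those genes, by its slope on their mean level but not by its correlation with it.

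Levels of different genes were compared per transcript length, in the deposited RefSeq FPKM (fragments scaled to transcript length and library size). Scn4b averaged 49.3 ± 6.78 FPKM (SD over all libraries, as for the genes that follow), Ppp1r1b 45.2 ± 4.33 FPKM and Rasd2 39.5 ± 3.36 FPKM. Pde10a averaged 10.99 ± 2.65 FPKM. Rgs9 averaged 1.83 ± 0.193 FPKM and Drd1 1.82 ± 0.268 FPKM. Rgs9 was above Drd1 in only 57 libraries, so those neighbours in the order did not differ beyond their spread. Adora2a averaged 0.737 ± 0.128 FPKM, Gpr6 0.619 ± 0.249 FPKM and Drd2 0.322 ± 0.111 FPKM. Scn4b was above Ppp1r1b in 70 libraries, Ppp1r1b above Rasd2 in 95, Adora2a above Gpr6 in 71 and Gpr6 above Drd2 in 94. The steps at Rasd2 over Pde10a, Pde10a over Rgs9 and Drd1 over Adora2a held in all libraries. In the deposited Ensembl FPKM the order of neighbours differed: Rasd2 (31.7) stood above Ppp1r1b (23.5), and Drd1 (1.67) above Rgs9 (1.37).

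**Figure D1:**
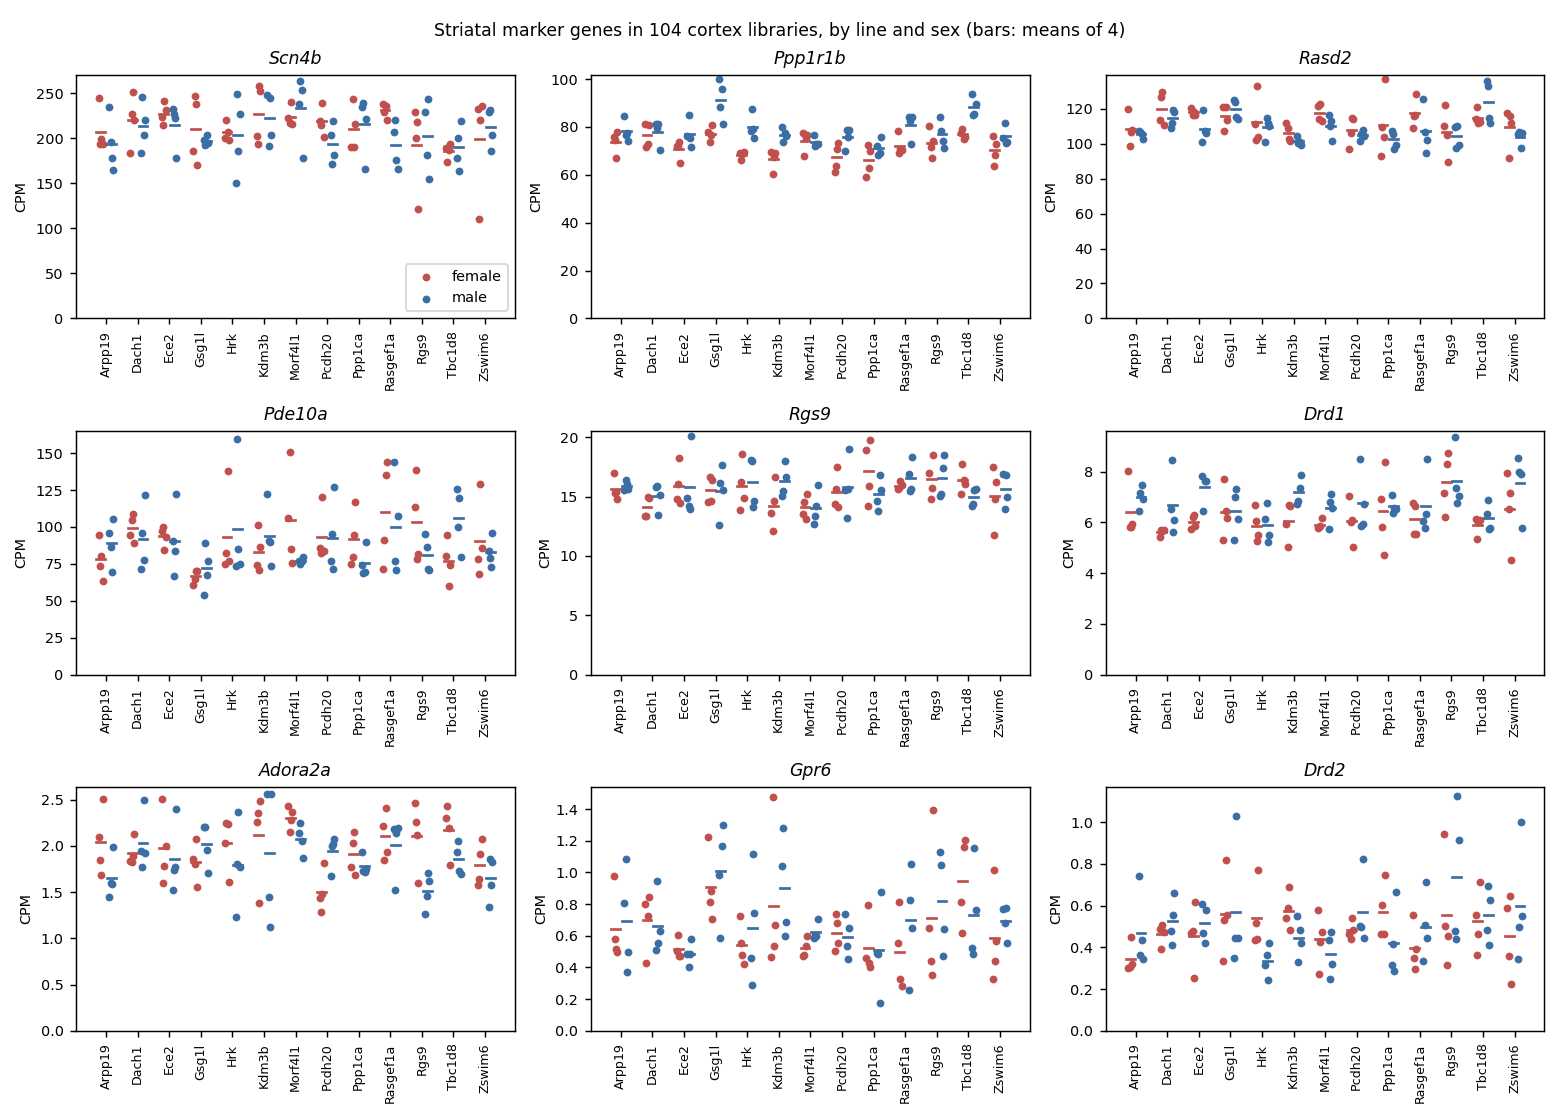
CPM of the 9 genes (vertical axes from 0, ordered by FPKM) in 13 lines, with 4 females (red, left) and 4 males (blue, right) in each and bars at the means of 4. Pde10a scatters widely within lines, 2 female libraries are low in Scn4b (109.8 and 121 CPM), and no line is the highest for all genes.

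The receptors had the fewest reads of the genes. Drd1 (chr13:54051183-54055705, minus strand; GRCm38, as for the positions below) had 17 to 274 reads a library and ran from 4.52 to 9.37 CPM with a median of 6.36 CPM. Its lowest library was Zswim6 female replicate 52 and its highest Rgs9 male replicate 41. Drd2 (chr9:49340627-49408177, plus strand) had 2 to 31 reads a library and ran from 0.226 to 1.12 CPM with a median of 0.472 CPM, from Zswim6 female replicate 52 to Rgs9 male replicate 43. Adora2a (chr10:75316877-75334784, plus strand) had 8 to 80 reads a library and ran from 1.12 to 2.57 CPM with a median of 1.90 CPM; the lowest and the highest library were both males of the Kdm3b line. Gpr6 (chr10:41069977-41072285, minus strand) had 5 to 40 reads a library and ran from 0.179 to 1.48 CPM with a median of 0.600 CPM. Its highest value rested on the 5 reads of Kdm3b female replicate 22, the library with the fewest reads. Counting error alone gives 64.1% of the variance of CPM over libraries for Adora2a, 62.9% for Drd2, 34.9% for Gpr6 and 26.1% for Drd1. A weak relation of Drd2 or Adora2a with another gene would be hard to detect at this depth.

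The signalling genes and the channel subunit were read more deeply. Ppp1r1b (chr11:98348404-98357796, plus strand) had 204 to 2849 reads a library and ran from 58.9 to 99.9 CPM with a median of 75.1 CPM. Rasd2 (chr8:75213944-75224113, plus strand) had 369 to 4412 reads a library and ran from 89.5 to 137 CPM with a median of 110.4 CPM, the smallest spread of the 9 (coefficient of variation 8.67%). Pde10a (chr17:8525372-8986648, plus strand) had 343 to 4423 reads a library and ran from 53.8 to 159.9 CPM with a median of 83.6 CPM. Its coefficient of variation was 24.4%, where counting error gives 2.04%. Scn4b (chr9:45138395-45154152, plus strand) had 655 to 8220 reads a library and ran from 109.8 to 263 CPM with a median of 215 CPM. The libraries Zswim6 female replicate 50 (109.8 CPM) and Rgs9 female replicate 44 (121 CPM) lay below the next at 150.3 CPM. Rgs9 (chr11:109225355-109298129, minus strand) had 41 to 636 reads a library and ran from 11.7 to 20.1 CPM with a median of 15.6 CPM. The Ensembl counts hold 62.0% as many Rgs9 reads and 139.7% as many Gpr6 reads as the RefSeq counts, so the levels of both depend on the gene model.

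Other striatal genes, not among the 9, were summarised for comparison. Of 15 listed, 12 passed the filter on low counts. The 3 that did not were Isl1 and Six3, transcription factors of developing striatal neurons, and Drd3, the D3 dopamine receptor. Isl1 was at 0 reads in 96 libraries with at most 2, Drd3 at 0 in 84 with at most 3, and Six3 at 0 in 60 with at most 6. The 12 tested genes summed to between 210.1 and 273 CPM. Adcy5, an adenylyl cyclase, ran from 109.8 to 142 CPM and Strip2 from 21.1 to 44.5 CPM. Mean levels were 9.08 CPM for Actn2, an actin crosslinker, 7.36 for Rarb, a retinoic acid receptor, 5.10 for Gprin3, and between 0.496 and 1.39 for Ido1, Slc35d3, Sh3rf2, Lrrc10b, Rxrg and Syndig1l. These genes also varied largely apart: r had a median of 0.06 over 66 pairs, and 1 pair was above 0.5.

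Between the 9 genes and these 12 there were 108 correlations, with a median of -0.04 after line and sex means were removed. Of these 3 were above 0.3: Gpr6 with Actn2 (0.36) and with Strip2 (0.36), and Ppp1r1b with Lrrc10b (0.32). Another 5 were under -0.3, among them Scn4b with Sh3rf2 (-0.34), Rasd2 with Sh3rf2 (-0.44) and with Strip2 (-0.39), and Rgs9 with Strip2 (-0.44). These values are descriptions over libraries that share their scaling.

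The mean log2 CPM of the 12 genes was used as a score, centred on its mean, and the slope of every gene on it was tested with line and sex in the fit. The score ran from -0.64 in Kdm3b female replicate 22 to 0.29 in Rasgef1a male replicate 40, with an SD of 0.127. In edgeR (quasi-likelihood test, p adjusted after Benjamini and Hochberg at 0.05), 1 of the 9 genes was called with a positive slope and 2 with a negative slope, against 8.22% and 8.29% of all genes outside the score (16.5% in either direction). Gpr6 had a slope of 1.88 ± 0.44 log2 units per log2 unit of score (SE, over all libraries; edgeR adjusted p = 0.00134). Rasd2 had -0.44 ± 0.09 (edgeR adjusted p = 0.000115) and Scn4b -0.55 ± 0.17 (0.0200). The slope of Pde10a, -0.66 ± 0.27, missed the threshold (0.0783), and those of Drd1 (0.26 ± 0.17), Ppp1r1b (0.10 ± 0.08), Rgs9 (-0.06 ± 0.13), Adora2a (-0.13 ± 0.23) and Drd2 (-0.13 ± 0.44) had adjusted p between 0.304 and 0.885. The median slope of the 9 was -0.13, beside 0.00314 for all genes.

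The call of Rasd2 held in 30 of 30 alternative fits and that of Gpr6 in 28 of 29. That of Scn4b held in 21 of 30: it was lost with an oligodendrocyte term (given below), without the line Rasgef1a (0.0793), Rgs9 (0.0947) or Zswim6 (0.0811), without the 3 libraries against their sex label (0.0592), on plate 1 alone (0.0859), among genes with a mean of at least 20 reads (0.131) and without the 3rd or 4th library of each line and sex (0.160 and 0.0886). Without Kdm3b female replicate 22 the slopes were 2.11 for Gpr6, -0.51 for Rasd2 and -0.76 for Scn4b, all called. Pde10a was called in 7 of 30 alternative fits: without the line Kdm3b (0.0497), Morf4l1 (0.0221) or Rgs9 (0.0485), without the 2nd library of each line and sex (0.0372), among genes with a mean of at least 20 reads (0.0404), in the Ensembl counts (0.0304) and with limma on log2(FPKM + 1), where the slope was -2.07 (limma adjusted p = 0.0111). Other marker lists moved with the same score, with which 8.22% of all genes rose and 8.29% fell. Of 9 oligodendrocyte genes 4 fell and 0 rose, and of 10 parvalbumin interneuron genes 5 fell and 0 rose. Of 5 claustrum and endopiriform genes 3 rose and 0 fell, and of 5 choroid plexus genes 3 fell and 0 rose. The mean log2 CPM of the choroid plexus genes was 3.44 in Rasgef1a male replicate 37, where the striatal score was -0.24. The next highest library, Arpp19 male replicate 1, had 0.70. How far the fall of the choroid plexus genes rests on Rasgef1a male replicate 37 was not tested. Upper-layer genes were mixed, with 4 of 9 rising and 2 falling, and of 6 astrocyte genes 0 were called. With the oligodendrocyte score as a further term the Scn4b slope was -0.27 (edgeR adjusted p = 0.189), that of Rasd2 -0.42 (0.000531) and that of Gpr6 2.01 (0.00162). The part of the other lists in these slopes was not tested.

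**Figure D2:**
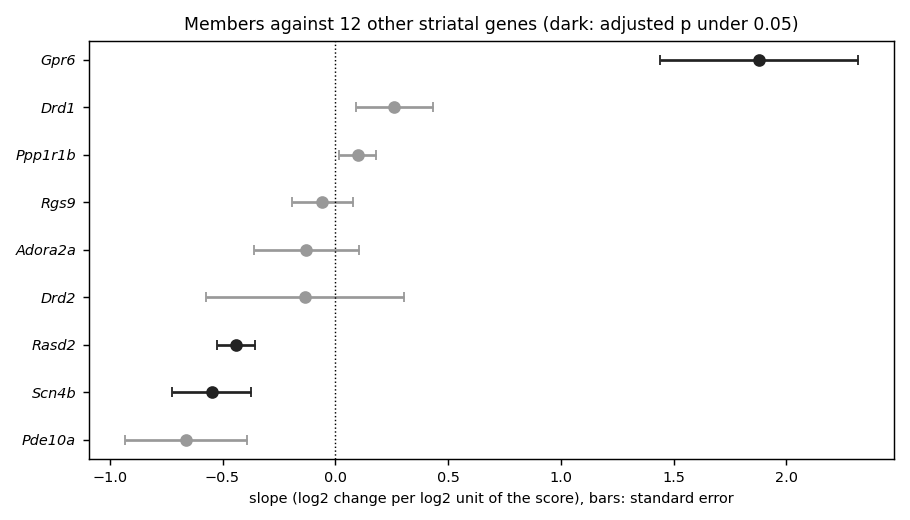
Slope of each of the 9 genes on the score of 12 other striatal genes (horizontal axis, log2 change per log2 unit of score; bars are standard errors; dark points have an adjusted p under 0.05). Gpr6 lies at 1.88, apart from the others, and Rasd2 (-0.44) and Scn4b (-0.55) lie below 0.

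Gpr6 and Rasd2 were called in opposite directions, and the 250 bases before their RefSeq starts are printed to show their promoters side by side (RefSeq, build GRCm38.p6; windows were listed for 7 of the 9 genes). The motifs searched, on both strands, were the cyclic AMP response element TGACGTCA, the TATA box TATAAA and the GC box GGGCGG, and capitals mark a match. The Gpr6 window is chr10:41072291-41072540 on the minus strand and the Rasd2 window chr8:75213694-75213943 on the plus strand, each 5′ to 3′.
Gpr6: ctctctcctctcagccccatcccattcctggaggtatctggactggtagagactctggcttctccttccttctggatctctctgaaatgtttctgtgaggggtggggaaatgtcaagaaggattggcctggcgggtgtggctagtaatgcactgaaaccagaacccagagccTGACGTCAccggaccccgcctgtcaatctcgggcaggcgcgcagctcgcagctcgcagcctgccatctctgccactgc
Rasd2: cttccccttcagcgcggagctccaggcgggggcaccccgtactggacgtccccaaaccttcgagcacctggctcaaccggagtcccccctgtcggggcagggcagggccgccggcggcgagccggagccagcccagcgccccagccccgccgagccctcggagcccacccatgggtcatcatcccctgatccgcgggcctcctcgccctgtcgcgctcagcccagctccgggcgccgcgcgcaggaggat
The Gpr6 window held 1 cyclic AMP response element, a motif present in 1.55% of 32851 windows of this length; the TATA box is in 12.4% and the GC box in 32.7%. None of the 3 was found in the Rasd2 window. GC content was 58.4% in the Gpr6 window and 75.2% in the Rasd2 window.

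Of the 36 pairs among the 9 genes, 5 were called by Pearson's r, and 3 of them also by Spearman's rho (two-sided permutation of libraries within line and sex, 100000 draws, Benjamini-Hochberg adjusted over the pairs). Distance was taken from the mean of the permuted values, so these p measure the relation within line and sex, not the pooled r. Drd1 and Rasd2, with r = -0.31 over all libraries and -0.16 after removing line and sex means, were not called (permutation adjusted p = 0.786). Pde10a and Rasd2 had r = 0.37 and rho = 0.32 (permutation adjusted p = 0.00216 and 0.00648), r = 0.37 without the 2 farthest libraries and 0.49 after removing line and sex means. Within lines r was positive in 11 of 13. Rasd2 and Scn4b had r = 0.35 and rho = 0.26 (permutation adjusted p = 0.00378 and 0.00936), r = 0.29 without the 2 farthest libraries and 0.44 after removing line and sex means, positive in 10 lines. Drd1 and Rgs9 had r = 0.37 and rho = 0.38 (permutation adjusted p = 0.0376 and 0.0113), r = 0.41 without the 2 farthest libraries and 0.38 after removing line and sex means, positive in 12 lines. In these pairs a library high in 1 gene tended to be high in the other.

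The remaining pairs were called by r alone, and both held Rasd2. Rasd2 and Gpr6 had r = -0.20 and rho = -0.17 (permutation adjusted p = 0.0403 and 0.0910), r = -0.13 without the 2 farthest libraries and -0.35 after removing line and sex means, negative in 10 lines. Ppp1r1b and Rasd2 had r = 0.32 and rho = 0.23 (permutation adjusted p = 0.0492 and 0.234), r = 0.26 without the 2 farthest libraries and 0.34 after removing line and sex means, positive in 8 lines. The receptors that share the indirect pathway in striatum did not pass as pairs: Drd2 and Adora2a had r = -0.08 and rho = -0.08 (permutation adjusted p = 0.986 and 0.984). Drd1 and Drd2 had r = 0.15 and rho = 0.09 (0.877 and 0.984).

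**Figure D3:**
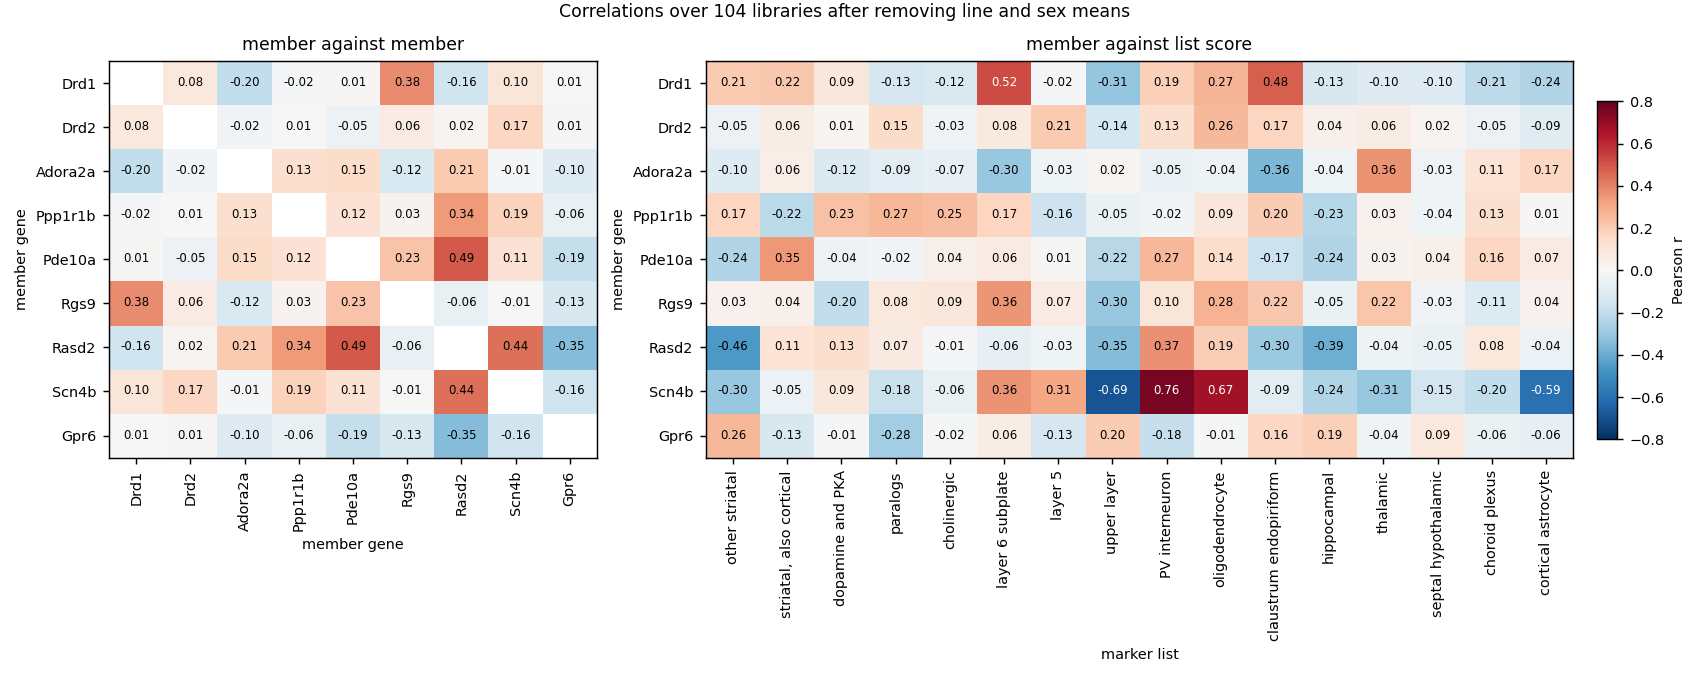
Pearson's r over all libraries after removing line and sex means, between the 9 genes (left) and between each gene and the scores of 16 marker lists (right), printed in each cell; the colour scale runs from -0.8 (blue) to 0.8 (red). Scn4b with parvalbumin (PV) interneuron markers (0.76) and with upper-layer markers (-0.69) stands out, and Drd1 with layer 6 and subplate markers reaches 0.52.

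Against 16 marker lists, 21 of 144 relations were called by Pearson's r and 18 by Spearman's rho (the same permutation, adjusted over the 144; the smallest p that it can give is 1e-05 before adjustment). By r, Scn4b had 7, Rasd2 4, Rgs9 3, Gpr6 1, and Drd1, Adora2a and Pde10a 2 each; Drd2 and Ppp1r1b had 0. With the other striatal genes Rasd2 alone was called, and with a negative sign: r = -0.38 and rho = -0.36 (permutation adjusted p = 0.00123 and 0.0181), and r = -0.36 without the 2 farthest libraries. That relation was negative in 12 of 13 lines. Gpr6 and Scn4b, called in edgeR by their slopes on the score of the same genes, were not called with them by r here.

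Scn4b varied with markers of fast-spiking cells and of myelin. With 10 parvalbumin interneuron genes it had r = 0.76 and rho = 0.73 (permutation adjusted p = 0.000288 and 0.000288), and r = 0.70 without the 2 farthest libraries, and r was positive in all 13 lines (0.39 to 0.92). With 9 oligodendrocyte genes it had r = 0.64 and rho = 0.61 (permutation adjusted p = 0.000288 and 0.000288), and r = 0.58 without the 2 farthest libraries, positive in 12 lines. With 9 upper-layer genes it had r = -0.63 and rho = -0.62 (permutation adjusted p = 0.000288 and 0.000288), and r = -0.61 without the 2 farthest libraries, positive in 0 lines. With 6 astrocyte genes it had r = -0.52 and rho = -0.50 (permutation adjusted p = 0.000288 and 0.000288), and r = -0.50 without the 2 farthest libraries, also positive in 0 lines. Weaker relations were called with layer 6 and subplate genes (r = 0.24), layer 5 genes (0.30) and thalamic genes (-0.33), the last 2 by r but not by rho (permutation adjusted p for rho = 0.153 and 0.0528).

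Among 12820 genes, those nearest to Scn4b by r after removing line and sex means were Vamp1 (0.89), a synaptic vesicle protein, Syt2 (0.88), a fast calcium sensor of transmitter release, and Lynx1 (0.87), a modulator of nicotinic receptors, and 455 genes were above 0.5. In Zswim6 female replicate 50 and Rgs9 female replicate 44, the lowest in Scn4b, Vamp1 stood at 233 and 229.5 CPM. In Morf4l1 male replicate 26, the highest in Scn4b, it stood at 356 CPM, with a median of 315 CPM over all libraries. The library lowest in Scn4b was thus also near the low end of Vamp1, and the highest near its high end.

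Drd1 varied with layer 6 and subplate markers and was not called by r with the 9 layer 5 genes. With 10 layer 6 and subplate genes it had r = 0.53 and rho = 0.51 (permutation adjusted p = 0.000288 and 0.000288), and r = 0.52 without the 2 farthest libraries, and r was positive in all 13 lines (0.06 to 0.81). With 5 claustrum and endopiriform genes it had r = 0.49 and rho = 0.40 (permutation adjusted p = 0.000720 and 0.00165), and r = 0.43 without the 2 farthest libraries, positive in 11 lines. With the medians of the lists in place of the means these were 0.39 and 0.29. With the other striatal genes r was 0.23 (permutation adjusted p = 0.290). Its nearest genes were Sema5a (0.60), a semaphorin, Spon1 (0.54), an extracellular matrix protein, and Elavl2 (0.53), a neuronal RNA-binding protein.

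Rgs9, the partner of Drd1 among the pairs, was called with the same layer 6 and subplate list by r alone: r = 0.35 and rho = 0.34 (permutation adjusted p = 0.0294 and 0.0502), and r = 0.40 without the 2 farthest libraries, positive in 12 lines. It was also called by r with oligodendrocyte genes (0.25, permutation adjusted p = 0.0333) and with the dopamine and protein kinase A genes (-0.25, permutation adjusted p = 0.0335). Its nearest genes were Ptpru (0.62), a receptor tyrosine phosphatase, Col6a1 (0.58), a collagen chain, and 4933427D14Rik (0.57).

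Pde10a was called with 12 striatal genes that the cortex is known to express too, among them the transcription factor Foxp1 and the neuropeptide genes Penk and Tac1: r = 0.36 and rho = 0.31 (permutation adjusted p = 0.00400 and 0.0116), and r = 0.31 without the 2 farthest libraries, positive in 10 lines. With parvalbumin interneuron genes it had r = 0.30 and rho = 0.31 (permutation adjusted p = 0.0133 and 0.0119), and r = 0.28 without the 2 farthest libraries. Tac1 is in both of these lists. The 12 striatal genes shared with cortex varied apart from each other, with a median r of -0.04 over 66 pairs, so the call is with their mean only. With the other striatal genes r was -0.25 (permutation adjusted p = 0.149). Its nearest gene was Maml3 (0.89, positive in all 13 lines), a coactivator of Notch signalling, followed by Phactr1 (0.79) and Shisa6 (0.79). In Hrk male replicate 18 and Rasgef1a female replicate 40, with 159.9 and 144 CPM of Pde10a, Maml3 stood at 29.1 and 30.5 CPM. In Gsg1l male replicate 13, with the lowest Pde10a, it stood at 10.4 CPM, and its median was 12.9 CPM.

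The genes nearest to Rasd2 were Klhl29 (0.76), Coro2b (0.75), an actin-binding coronin, and Hr (0.75), a nuclear receptor corepressor, each positive in all 13 lines. Rasd2 was called with hippocampal genes (r = -0.31, rho = -0.33, permutation adjusted p = 0.0128 and 0.0134, r = -0.31 without the 2 farthest libraries). Its relations with parvalbumin interneuron and upper-layer genes were called by the permutation within line and sex, but were small over all libraries. With parvalbumin interneuron genes r was 0.17, 0.07 without the 2 farthest libraries and 0.37 after removing line and sex means (permutation adjusted p = 0.00234), so the pooled value rests on those libraries. With upper-layer genes r was -0.15, -0.10 and -0.35 in the same order (permutation adjusted p = 0.00484).

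The remaining genes had looser neighbours. Adora2a was called with claustrum and endopiriform genes (r = -0.39, rho = -0.40, permutation adjusted p = 0.00484 and 0.0101, r = -0.38 without the 2 farthest libraries) and with thalamic genes (r = 0.35, rho = 0.33, permutation adjusted p = 0.0111 and 0.0156, r = 0.33 without the 2 farthest libraries). Its nearest genes were Tmco4 (0.47), Gng5 (0.45), a G protein gamma subunit, and Selplg (0.45), a selectin ligand. Gpr6 was called with the paralogs of the members (r = -0.25, rho = -0.30, permutation adjusted p = 0.00853 and 0.00165, r = -0.24 without the 2 farthest libraries), a value that turned to 0.04 with the median of that list. Its nearest genes were Tmem86a (0.59), Gda (0.59), a guanine deaminase, and Tmem209 (0.59). Ppp1r1b was nearest to Kctd17 (0.54), Mylk (0.53), a myosin light chain kinase, and Kcnip2 (0.51), a potassium channel partner. Drd2 had no gene above 0.5, and its nearest were Ttc9 (0.37), Phldb1 (0.35) and Dlc1 (0.34). The nearest genes of each member are those highest in r among 12820 genes. Whether unrelated genes reach such values in a search of that size was not tested.

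**Figure D4:**
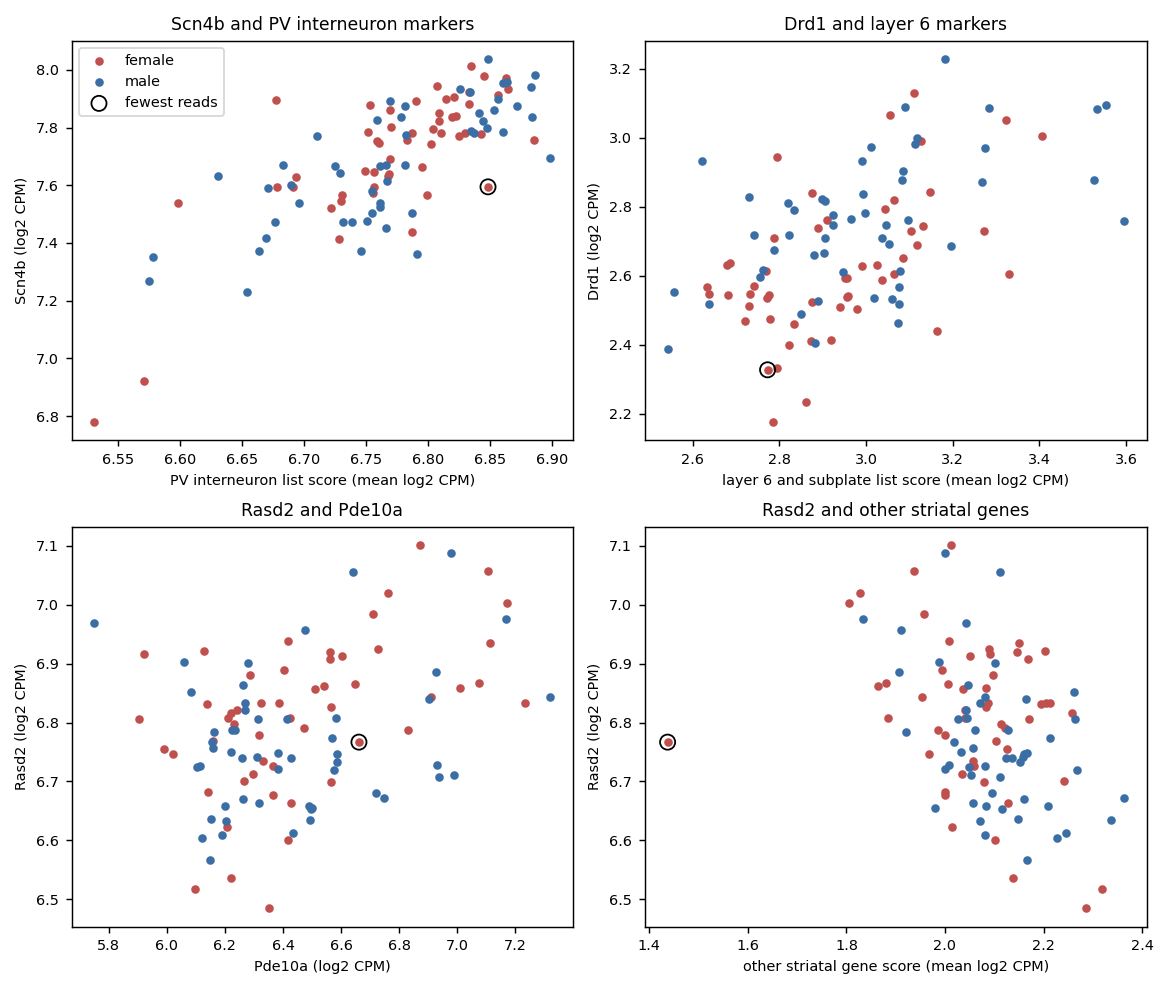
Each point is 1 library (females red, males blue; the ring marks the library with the fewest reads), with all axes in log2 CPM or mean log2 CPM of a list. Scn4b is high where parvalbumin interneuron markers are high (r = 0.76), Drd1 where layer 6 and subplate markers are (0.53) and Rasd2 where Pde10a is (0.37), and Rasd2 is low where the other striatal genes are high (-0.38).

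Between the sexes, Ppp1r1b and Drd1 were lower in females. Of the 9 genes, 2 were called lower and 0 higher in females by edgeR's quasi-likelihood test, against 4.5% and 4.07% of all genes. Ppp1r1b ran from 58.9 to 81.2 CPM with a median of 71.8 in females and from 68.1 to 99.9 CPM with a median of 77.3 in males. The sexes overlapped, and the female mean was the higher in 1 of 13 lines. The difference was -0.13 ± 0.02 on the log2 scale (SE, n = 52 each, edgeR adjusted p = 3.29e-08). Drd1 ran from 4.52 to 8.74 CPM with a median of 6.03 in females and from 5.23 to 9.37 CPM with a median of 6.74 in males. The sexes overlapped here too, and the female mean was the higher in 0 of 13 lines. The difference was -0.12 ± 0.04 (n = 52 each, edgeR adjusted p = 0.0172).

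Without the 3 libraries against their sex label the differences were -0.13 for Ppp1r1b (edgeR adjusted p = 2.03e-07) and -0.12 for Drd1 (0.0186). With the score of the other striatal genes as a term they were -0.13 (1.29e-07) and -0.12 (0.0320). Ppp1r1b was called in 29 of 29 alternative fits and Drd1 in 26 of 29, with the call lost without the line Ece2 (edgeR adjusted p = 0.0588) and without the 2nd or 3rd library of each line and sex (0.144 and 0.0870). Rasd2 averaged 113 ± 9.94 CPM in females and 109 ± 8.97 CPM in males (SD, n = 52 each), which missed the threshold (edgeR adjusted p = 0.122; 0.0491 on plate 1 alone). The other 6 genes had adjusted p between 0.230 and 0.899. Of the 12 other striatal genes 1 was called lower and 0 higher in females, against 4.5% and 4.07% of all genes. It was Syndig1l (-0.19 ± 0.06, edgeR adjusted p = 0.0224). Of 12 striatal genes that the cortex expresses too, 1 was called lower and 0 higher in females. It was Pdyn, the dynorphin precursor (-0.11 ± 0.02, edgeR adjusted p = 0.000829). Both lists had a median log2 difference of -0.02. Of the 10 layer 6 and subplate genes, with which Drd1 varied, 0 were called lower in females, with a median log2 difference of -0.05 beside 0.00 for all genes.

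Across the 13 lines, 2 of the 9 genes were called in an F-test (edgeR, quasi-likelihood) with sex in the fit, against 9.61% of all genes. They were Ppp1r1b (F = 6.24, edgeR adjusted p = 4.77e-06) and Rasd2 (F = 3.24, 0.0110). Gpr6 (0.0679) and Drd1 (0.0841) missed the threshold, and the other 5 had adjusted p between 0.345 and 0.506. The call of Ppp1r1b held in 29 of 30 alternative fits and that of Rasd2 in 22 of 30. The Rasd2 call was lost without the line Gsg1l (0.0501), Kdm3b (0.0543) or Tbc1d8 (0.0823), on plate 1 alone (0.0696) and without the 1st, 2nd or 3rd library of each line and sex (0.0609, 0.172 and 0.151). DESeq2 on all libraries called Gpr6 (DESeq2 adjusted p = 0.0329) and Drd1 (0.0431), and edgeR called both without the 2nd library of each line and sex (0.0165 and 0.0437). Gpr6 was also called without the line Arpp19 (0.0485), Rasgef1a (0.0411) or Rgs9 (0.0410), and Drd1 without the line Ppp1ca (0.0435). Among females alone neither Ppp1r1b (0.166) nor Rasd2 (0.842) was called.

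Each line set against the mean of the other 12 gave 5 calls in 117 combinations of gene and line, against 1.79% over all genes and lines. All 5 lay in the lines Gsg1l and Tbc1d8, where 10.4% and 12.4% of all genes were called. The p-values were adjusted within each line, so the unadjusted p needed for a call differed between lines. Ppp1r1b in the Ppp1ca line (-0.14 ± 0.03, SE, edgeR unadjusted p = 6.43e-05, adjusted 0.505) was not called. Nor was Drd1 in the Rgs9 line (0.25 ± 0.07, edgeR unadjusted p = 0.000291, adjusted 0.241). Both unadjusted p were below that of Rasd2 in the Tbc1d8 line (0.00303), which was called. In the Gsg1l line Ppp1r1b ran from 73.6 to 99.9 CPM with a median of 81.1, against 58.9 to 93.9 CPM with a median of 74.1 in the other lines, a log2 difference of 0.18 ± 0.03, edgeR adjusted p = 7.13e-05 (SE; 8 libraries against 96). In the same line Pde10a ran from 53.8 to 88.9 CPM with a median of 68.8, against 59.9 to 159.9 CPM with a median of 85.3 in the other lines (-0.40 ± 0.12, edgeR adjusted p = 0.0191). Gpr6 there ran from 0.585 to 1.30 CPM with a median of 0.931, against 0.179 to 1.48 CPM with a median of 0.584 in the other lines (0.58 ± 0.17, edgeR adjusted p = 0.0147). The ranges overlapped for all 3, with Ppp1r1b and Gpr6 higher and Pde10a lower in the Gsg1l line. Neither Pde10a nor Gpr6 was called without the 1st library of each line and sex (0.249 and 0.223), without the 3rd (0.0526 and 0.0850), in females alone (0.134 and 0.208) or in males alone (0.269 and 0.151), and Gpr6 was not called without the 4th (0.0667). The Ppp1r1b difference was 0.12 and not called in females alone (edgeR adjusted p = 0.199).

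In the Tbc1d8 line Ppp1r1b ran from 74.9 to 93.9 CPM with a median of 82.2, against 58.9 to 99.9 CPM with a median of 74.1 in the other lines (0.15 ± 0.03, edgeR adjusted p = 0.000808). Rasd2 there ran from 112 to 136 CPM with a median of 114, against 89.5 to 137 CPM with a median of 109 in the other lines (0.12 ± 0.04, edgeR adjusted p = 0.0304). The ranges overlapped for both. The Rasd2 difference was not called without the line Kdm3b (0.0620) or Pcdh20 (0.0530), without the 1st or 2nd library of each line and sex (0.156 and 0.302), nor on plate 1 alone (0.08, edgeR adjusted p = 0.298). It was 0.03 in females alone (edgeR adjusted p = 0.892) and 0.20 in males alone (0.00403). In females alone the Ppp1r1b difference was 0.11 and not called either (0.228).

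The highest and lowest line means of the other genes did not pass that test. Drd1 averaged 7.62 ± 1.07 CPM in the Rgs9 line (SD, n = 8 for each mean given here) and 5.89 ± 0.603 CPM in Hrk. Drd2 averaged 0.646 ± 0.299 CPM in the Rgs9 line and 0.404 ± 0.113 CPM in Morf4l1. Adora2a averaged 2.19 ± 0.178 CPM in Morf4l1 and 1.72 ± 0.303 CPM in Pcdh20. The line named Rgs9 had the highest mean of the Rgs9 gene, 16.5 ± 1.53 CPM, and Morf4l1 the lowest, 14.1 ± 1.10 CPM. Scn4b averaged 228 ± 26.4 CPM in Morf4l1 and 188 ± 17.1 CPM in Tbc1d8. At the ends not yet given, Pde10a averaged 105 ± 32.1 CPM in Rasgef1a, Ppp1r1b 68.7 ± 5.50 CPM in Ppp1ca, Rasd2 103.8 ± 4.49 CPM in Kdm3b and Gpr6 0.501 ± 0.0650 CPM in Ece2.

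Whether the sex difference itself differed between lines was tested by their interaction. In edgeR's quasi-likelihood test 6 genes were called (0.0382%), 597 had an unadjusted p under 0.05, and 0 of the 9 genes were called. Their smallest unadjusted p was 0.127, for Ppp1r1b.

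Further genes of dopamine and protein kinase A signalling moved in small steps. Of 30 tested, 2 were called lower and 3 higher in females, against 4.5% and 4.07% of all genes, and their median log2 difference, like that of all genes, was 0.00. Adcy1, a calcium-stimulated adenylyl cyclase, was lower (-0.07 ± 0.01, edgeR adjusted p = 0.000223), and so was Ppp1cc, a catalytic subunit of protein phosphatase 1 (-0.08 ± 0.02, edgeR adjusted p = 0.00383). Arpp19, a regulator of protein phosphatase 2A, was higher (0.04 ± 0.01, edgeR adjusted p = 0.00442), and so was Prkaca, a catalytic subunit of protein kinase A (0.03 ± 0.01, edgeR adjusted p = 0.0397). Between lines 11 of the 30 were called, against 9.61% of all genes, those with the smallest p being Prkar1b (edgeR adjusted p = 5.79e-06), Arpp21 (0.000431), Gnal (0.000837) and Pde4b (0.00151). With the score of other striatal genes 4 rose and 4 fell, against 8.22% and 8.29% of all genes outside the score. Adcy5 is among the 30 and is also 1 of the 12 genes of the score, so its slope is not independent of the score. The phosphodiesterases Pde1b (0.30 ± 0.06, edgeR adjusted p = 9.32e-05) and Pde4b (0.27 ± 0.06, edgeR adjusted p = 0.00193) and the calmodulin regulator Arpp21 (0.27 ± 0.07, edgeR adjusted p = 0.00182) rose, and Gnb5, the G protein beta subunit that pairs with Rgs9, fell (-0.30 ± 0.08, edgeR adjusted p = 0.00368).

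Paralogs of the 9 genes were counted in the same tests. Of 17 tested, 1 was called higher and 0 lower in females, against 4.07% and 4.5% of all genes: Scn2b, a sodium channel beta subunit like Scn4b (0.05 ± 0.01, edgeR adjusted p = 0.000572). Between lines 2 were called, against 9.61% of all genes: Scn2b (edgeR adjusted p = 0.0471) and Gpr12, a receptor related to Gpr6 (0.0380). With the score 2 rose and 4 fell, against 8.22% and 8.29% of all genes, with a median slope of 0.05. Scn3b rose (0.67 ± 0.13, edgeR adjusted p = 0.000163). Rasd1, the relative of Rasd2, fell (-1.32 ± 0.41, edgeR adjusted p = 0.0173), as did the phosphodiesterase Pde5a (-0.35 ± 0.10, edgeR adjusted p = 0.00862).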

How the data were processed

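RNA of cortex from 13 lines of 8 mice was extracted with RNeasy kits and made into TruSeq stranded libraries, per the labels' protocols. The deposited tables hold read counts and FPKM per gene for RefSeq and Ensembl models, made by the authors; STAR 2.7.3a and HTSeq 0.10.0 and the build GRCm38 (mm10) are named in the submitters' processing notes, and how FPKM was normalized is not given in the sources used here. The last, incomplete line of the Ensembl count table was dropped.

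RefSeq counts were filtered (filterByExpr by line and sex), scaled by TMM and fitted in edgeR 4.0.16 (R 4.3.3) with quasi-likelihood tests on line and sex, Benjamini-Hochberg adjusted at 0.05 over all tested genes. Correlations used log2 CPM with a prior count of 2 and 100000 permutations in Python 3.11.15; list scores are means of log2 CPM. Alternatives used limma 3.58.1 on log2(FPKM + 0.1) and log2(FPKM + 1) and DESeq2 1.42.0. The pipelines were tested on simulated data. Genes named beyond the members were the tested other striatal genes, the 3 nearest genes of each member and up to 4 called genes of a list with the smallest p. Promoters of 2 members, examples of low Isl1, Six3 and Drd3, and example members of lists were chosen after values were seen. Values of some list genes, and 1 alternative score, are not reported here. The members and lists were chosen with earlier results of these data known. The design text gives 8 samples a line. Whether mice shared litters is not given in the sources used here, and p-values measure the spread between these samples. Some sample names of a line share a middle number, which the tests did not use, so mice were treated as independent. Totals of 3389134 to 33489259 reads limit scarce genes, and counting shares cover counting error only.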

Additional observations from a re-analysis of the deposited data

Results flagged for a closer look

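Within a line of 8 libraries, a library was singled out when its gap to the nearest other value was large against the range of the line. That held for 10 of 117 combinations of gene and line, where chance gives about 1 in 20. All values are CPM. Drd1 was highest in Dach1 male replicate 6, at 8.47, with the nearest other library at 6.53. Drd1 was highest in Rasgef1a male replicate 40, at 8.49, with the nearest other library at 6.78. Drd2 was highest in Arpp19 male replicate 1, at 0.742, with the nearest other library at 0.448. Drd2 was lowest in Ece2 female replicate 11, at 0.255, with the nearest other library at 0.419. Drd2 was highest in Pcdh20 male replicate 31, at 0.825, with the nearest other library at 0.539. Rasd2 was highest in Arpp19 female replicate 1, at 120, with the nearest other library at 108. Rasd2 was highest in Hrk female replicate 19, at 133, with the nearest other library at 115. Rasd2 was highest in Ppp1ca female replicate 36, at 137, with the nearest other library at 110. Scn4b was lowest in Ece2 male replicate 12, at 178, with the nearest other library at 214. Scn4b was lowest in Zswim6 female replicate 50, at 110, with the nearest other library at 186. Rasgef1a male replicate 40 is among the libraries against their sex label, and Zswim6 female replicate 50 had the lowest parvalbumin interneuron and oligodendrocyte scores of all libraries. No cause was tested.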

How the results depend on the processing

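The number of genes moving with the score was 2594 (1292 with a positive and 1302 with a negative slope), 1704 with no filter, 1616 with a mean of at least 20 reads, 4168 (2527 with a positive and 1641 with a negative slope) with limma on log2(FPKM + 1) and 3396 (2174 with a positive and 1222 with a negative slope) on log2(FPKM + 0.1). Genes differing between lines numbered 1511, 1001 on plate 1, 152 in females and 456 in males. The interaction gave 6 genes and 1 without the libraries against the sex label. The member calls of single lines numbered 5, and 0 in females alone. The correlation of Gpr6 with the paralogs turned to 0.0377 with the median of the list. The cause of these shifts was not tested, beyond the fewer samples of the sex and plate subsets.

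Leaving out a line, or a library of every line and sex, gave 1015 to 2779 genes moving with the score (lowest without the line Rasgef1a), 400 to 1697 differing between lines (lowest without Tbc1d8), 477 to 1416 between sexes and 2 to 5 member calls of single lines (lowest without Gsg1l and without the 1st library of every line and sex). Without Gsg1l the calls of that line itself could not be made, so the drop to 2 there does not measure how firm the calls are. For the interaction only a library of every line and sex was left out, which gave 0 to 4 genes. Over the alternatives, 714 correlation values kept close to the one reported, 41 moved and 1 turned. Slopes kept their direction and side of the threshold in 236 settings; 15 (of Drd1, Drd2, Ppp1r1b and Rgs9) changed sign without a call in either fit, 10 lost their call and 7 gained one. Correlations after removing line and sex means without the library with the fewest reads were added after seeing the data.

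Replicate numbers are shared by the sexes of a line. With a replicate block 1359 genes differed between sexes, against 1347 without it. Under that block Drd1 had -0.13 (edgeR adjusted p = 0.00557) and Ppp1r1b -0.13 (1.92e-07). Deviations of the 52 same-numbered pairs correlated between -0.24 and 0.24, with a median of 0.02 and 8 above 0.1. That check over all genes cannot show whether same-numbered mice shared litter or handling. Depth limits Drd2, Adora2a and Gpr6 most.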
